A study of Homo sapiens with 75 samples.

Results

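The antiproliferative BTG and TOB family was described across 5 human cell lines before and after ionising radiation. The family was taken as BTG1, BTG2, BTG3, TOB1 and TOB2, and its members were all probe sets (groups of short DNA probes for one transcript) that an annotation table of the array assigns to one of these symbols alone. This gave 12 of the 54675 probe sets and 4 of the 5 genes, out of 19775 genes with a probe set of their own. BTG2 had no listed probe set and was not analysed here. BTG1 was represented by 3 probe sets, BTG3 by 4, TOB1 by 2 and TOB2 by 3, and the brightest probe set of each gene, by its mean on the 75 arrays, was the main one. All 4 main probe sets passed the level filter (a mean in that line over the 40th percentile) in all 5 lines.

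The lines, named as labelled, were G361 (from a melanoma), HepG2 (from a hepatic tumour), TK6 (B lymphoblasts), U2OS (from an osteosarcoma) and BJ (fibroblasts). In each line 3 arrays came from untreated (mock-irradiated) cells at 0 h, 3 h and 6 h, and 3 arrays each from cells 3 h and 6 h after 5 Gy. The labels name no other agent and no separate cultures for the replicates, so each p-value rests on a spread among arrays that may be only technical. The comparison asked how a line's transcripts differ between irradiated and mock-treated cells at matched times.

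BTG and TOB proteins share a conserved amino-terminal domain and slow cell proliferation when overexpressed. Through that domain they bind the CAF1 deadenylases (CNOT7 and CNOT8) of the CCR4-NOT complex, which shortens the poly(A) tails of messenger RNAs, and TOB1 and TOB2 also bind the cytoplasmic poly(A)-binding protein. BTG2 is a classical target of p53, the transcription factor that responds to DNA damage, and BTG1 is known for keeping lymphocytes quiescent and as a gene recurrently mutated in B cell lymphomas. TOB1 is also known as a repressor of SMAD signalling and of cyclin D1. BTG3 has been described as a p53 target that binds E2F1 and the checkpoint kinase CHEK1.

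Values are log2 values, so a difference of 1 is a doubling, and a gene was called in a comparison at an adjusted p under 0.05 in limma. A level from one probe set was compared between arrays but never with the level of another gene, since probe sets differ in brightness. A lower value in an array of bulk RNA cannot be told apart between fewer cells with the transcript and less of it per cell. Upper quartiles of the arrays lay between 5.88 and 6.41, the lowest being replicate 1 of untreated U2OS at 3 h, and the other 14 U2OS arrays were at or above 6.11. The mean level of 39 of 41 listed p53 targets, set to 0 at the 0 h mean of each line, was 1.07 to 1.31 in irradiated TK6, 0.49 to 1.24 in irradiated U2OS, 0.44 to 0.57 in irradiated BJ and at most 0.15 in the untreated arrays of these lines. In arrays labelled HepG2 it was -0.01 to 0.29 in untreated and -0.01 to 0.11 in irradiated cells at 3 h, and 0.67 to 0.70 in untreated and 0.80 to 0.89 in irradiated cells at 6 h. In arrays labelled G361 it was 0.10 to 0.57 in untreated and -0.05 to 0.08 in irradiated cells at 3 h, and 0.03 to 0.65 in untreated and 0.34 to 0.58 in irradiated cells at 6 h. Replicate 3 of untreated G361 stood apart at both times, at 0.57 at 3 h (the others 0.10 and 0.10) and at 0.03 at 6 h (the others 0.61 and 0.65). Any direction below rests on the labels as given. The melanocyte, B lymphoid and fibroblast markers were highest in G361, TK6 and BJ (6 of 6, 6 of 6 and 8 of 8), whereas of the 5 osteoblast markers 2 were highest in U2OS and 2 in the arrays labelled HepG2 (RUNX2 at 9.17, against 8.04 in U2OS). Of the 8 hepatocyte markers 1 was highest in the arrays labelled HepG2, AFP at 5.89, against 5.48 in U2OS. In U2OS 4 were highest, namely SERPINA1 at 8.57 and APOA1, APOB and FGB at 2.94 to 4.27, near their levels in the other lines. Albumin (ALB) was at 2.77 in HepG2, below the level limit of 3.47, and at most 2.94 in any line.

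Across 40 values (4 genes, 5 lines and 2 times) of irradiated minus untreated arrays, 2 were called in the main fit, and both were BTG1 in TK6, where it rose. In TK6 1 of 4 members was called at 3 h and 1 of 4 at 6 h, against 3.99% and 6.23% of all 14227 genes tested (1.88% and 4.01% higher). No member was called in the other lines, where 0.0887% and 0.641% of genes were called for U2OS, 0.18% and 0.235% for BJ, 0% and 0.00696% among the arrays labelled HepG2, and 0% at both times among those labelled G361. Of the 38 values not called, 4 had an unadjusted p under 0.05 in limma, namely TOB2 in TK6 at 3 h, TOB1 in U2OS at 3 h, BTG1 in U2OS at 6 h and TOB1 in BJ at 3 h. The irradiated and untreated arrays did not overlap in 8 of the 40 values: BTG1 and TOB2 in TK6 at 3 h, BTG1 in TK6 at 6 h, BTG1 and TOB1 in U2OS at 3 h, TOB2 in U2OS at 6 h, and TOB1 and BTG3 in BJ at 3 h. The share of all genes without overlap was 17.4% and 23.6% for TK6 at 3 h and 6 h, 6.8% and 12.4% for U2OS, 6.93% and 10.8% for BJ, 12.8% and 14.2% for HepG2, and 4.2% and 5.96% for G361, so a member without overlap is not unusual by itself. The main fit did not use the replicate numbers. A block on them also called TOB1 in TK6 at both times and in U2OS at 3 h. Those fits called 8.46%, 13.1% and 0.246% of genes.

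**Figure D1:**
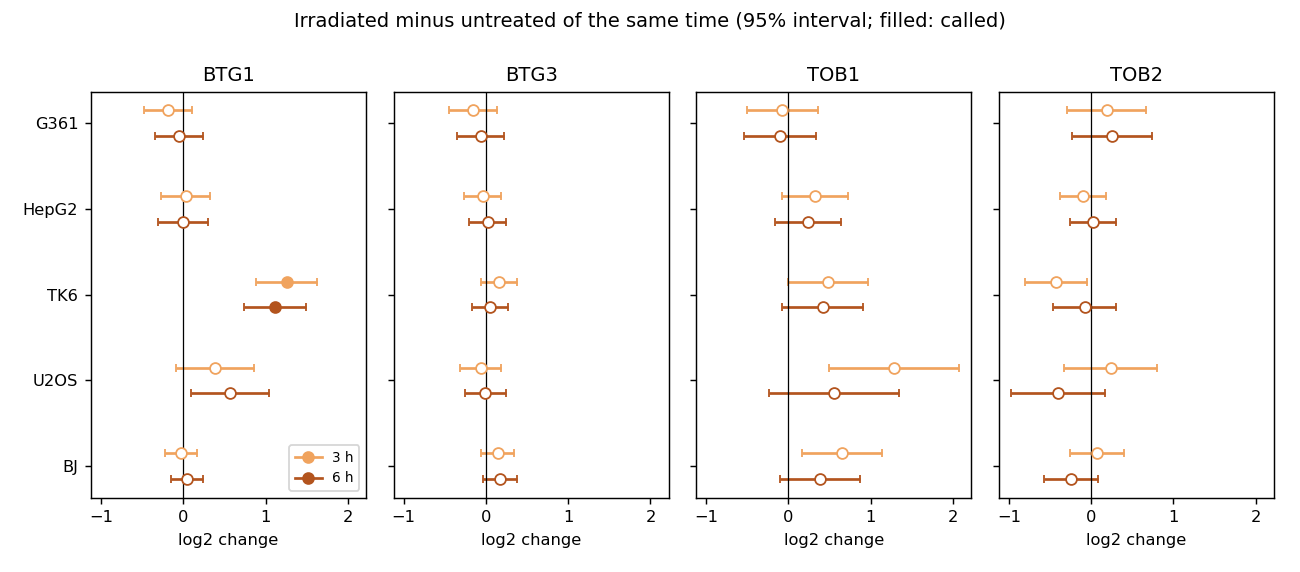
Log2 change of each member, irradiated minus untreated arrays of the same time, with its 95% interval from limma, for 5 lines at 3 h (light) and 6 h (dark). Filled points are called, which are BTG1 in TK6 at 1.26 and 1.12. TOB1 in U2OS at 3 h, at 1.28 with an interval from 0.50 to 2.07, is open because it was not called.

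BTG1, on chromosome 12 (92140278 to 92145846 in GRCh38.p14, minus strand, gene identifier 694), rose in TK6 at both times. In irradiated TK6 at 3 h the replicates 1, 2 and 3 were at 11.94, 11.40 and 11.35, and in untreated TK6 at 3 h at 10.64, 10.05 and 10.23. All 3 irradiated arrays lay above all 3 untreated ones. The difference was 1.26 (SE 0.18, n = 3 against 3), a 2.39-fold rise with a limma adjusted p of 0.000158, and it ranked 83 of 14227 genes by size. At 6 h the irradiated arrays were at 11.90, 11.42 and 11.36 and the untreated ones at 10.78, 10.25 and 10.31, again without overlap. The rise at 6 h was 1.12 (SE 0.18, n = 3 against 3) or 2.17-fold, with a limma adjusted p of 0.000549 and rank 126.

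The rise of BTG1 in TK6 was not shown to differ between the times: the change at 6 h minus that at 3 h was -0.14 (95% interval -0.67 to 0.39). The untreated 0 h arrays of TK6 were at 10.51, 10.47 and 10.65, and untreated 3 h and 6 h arrays differed from them by -0.24 and -0.10, with limma adjusted p of 0.641 and 0.875. Against the 0 h arrays, which both comparisons share, irradiated TK6 was higher by 1.02 at 3 h and by 1.02 at 6 h, both called (limma adjusted p 0.000878 and 0.000844), among 10.5% and 14.2% of genes. Same-numbered arrays gave differences of 1.31, 1.35 and 1.12 at 3 h and of 1.12, 1.18 and 1.06 at 6 h, so replicate 1 was high in both groups. CDKN1A, the p53 target that encodes the cyclin kinase inhibitor p21, was higher by 2.25 and 1.81 in the same arrays.

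A second probe set of BTG1 was called at both times too. Its irradiated TK6 arrays at 3 h were at 10.98, 10.99 and 11.02 and the untreated ones at 10.07, 9.82 and 9.83. The difference was 1.08 at 3 h and 0.96 at 6 h, called at both times in a limma fit of all 32805 probe sets past the filter (adjusted p 0.000117 and 0.000427), in which 2.66% and 4.12% of probe sets were called. The third probe set had a mean of 2.57 to 3.06 in the 5 lines and was below the level limit in each.

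The change of BTG1 after irradiation differed between the 5 lines. A moderated F test in limma over all 75 arrays gave adjusted p of 0.000234 at 3 h and 0.00256 at 6 h, when 1.34% and 1.83% of 16027 genes passed. The change in TK6 exceeded the mean change of the other 4 lines by 1.21 at 3 h and by 0.98 at 6 h (SE 0.20 for each), with limma adjusted p of 1.92e-05 and 0.000676. In that comparison 1.97% and 2.13% of genes were called. Without the arrays labelled G361 and HepG2 the F test gave adjusted p of 0.0133 at 3 h and 0.0582 at 6 h, and the call at 6 h was lost. Without replicate 2 or replicate 3 the adjusted p was 0.216 and 0.158 at 3 h and 0.707 and 0.244 at 6 h, and the calls between lines were lost. Without replicate 1 it was 5.71e-08 and 1.46e-06.

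In U2OS, where BTG1 is at its lowest level, irradiated arrays at 3 h were at 7.82, 7.83 and 7.70 and untreated ones at 7.22, 7.45 and 7.54. They did not overlap, and the difference of 0.39 (95% interval -0.09 to 0.86) was not called, with a limma adjusted p of 0.909. Over all genes the median difference in this comparison was 0.10. Without replicate 1 of the untreated arrays, the array with the low upper quartile, the BTG1 difference was 0.29. At 6 h the irradiated U2OS arrays were at 8.53, 7.78 and 7.85 and the untreated ones at 8.05, 7.26 and 7.13, and here replicate 1 of the untreated group lay above 2 of the irradiated arrays. The difference was 0.57 (95% interval 0.10 to 1.05, limma adjusted p 0.862), and the same-numbered differences were 0.48, 0.51 and 0.72. Without replicate 1 in the U2OS groups it was 0.62 and called, with a limma adjusted p of 0.0195. The share of all genes called in that fit is not given here, so the call is no result about BTG1 by itself.

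In the other lines BTG1 was not called. The differences were -0.03 and 0.04 in BJ at 3 h and 6 h, 0.03 and -0.004 in the arrays labelled HepG2, and -0.19 and -0.05 in those labelled G361. The 95% intervals were -0.23 to 0.17 and -0.15 to 0.24 in BJ, -0.27 to 0.33 and -0.30 to 0.30 in HepG2, and -0.48 to 0.10 and -0.34 to 0.24 in G361, and each interval ended below the lower bounds of TK6, 0.88 and 0.74. In BJ the p53 score and CDKN1A (1.28 and 1.04, both called) were raised in the same irradiated arrays.

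**Figure D2:**
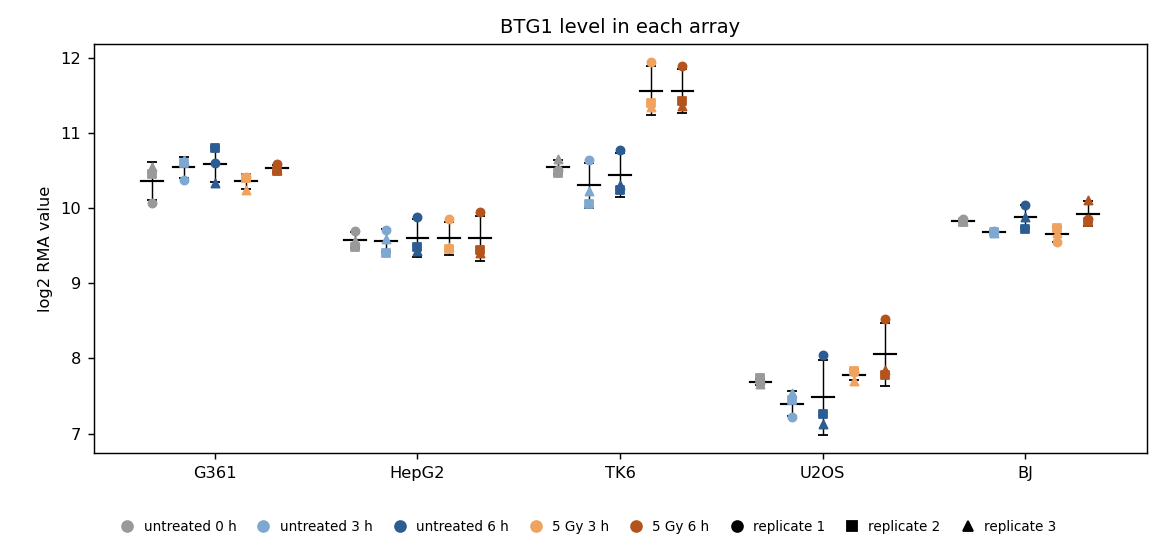
Log2 RMA value of the main BTG1 probe set in each of the 75 arrays, by line, with colours for treatment and time and symbols for the replicate number. Horizontal bars are group means and vertical bars 1 SD (n = 3). Irradiated TK6 arrays lie between 11.35 and 11.94, above every untreated TK6 array, and U2OS is the lowest line.

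The bases before the start site of BTG1 are shown because it is the member that was called. The window of 250 bases upstream of the RefSeq start (chr12:92145847-92146096 in GRCh38.p14, minus strand, printed 5′ to 3′ along the gene) was searched on both strands for the TATA box motif TATAAA, the motif CCAAT bound by nuclear factor Y, the CRE-like motif TGACGTNA, the E2F-type motif TTTCCCGC and the p53 half-site, and matches are in capitals.
BTG1: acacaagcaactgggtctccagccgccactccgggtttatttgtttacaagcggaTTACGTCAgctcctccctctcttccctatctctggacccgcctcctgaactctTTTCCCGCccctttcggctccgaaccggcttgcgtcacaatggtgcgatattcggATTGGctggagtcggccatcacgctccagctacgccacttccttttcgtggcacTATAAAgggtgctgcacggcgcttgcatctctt
The TATA motif lay 33 to 28 bases upstream of the start and the CCAAT motif, on the opposite strand, at 87 to 83. The E2F-type motif lay at 142 to 135 and the CRE-like motif, also on the opposite strand, at 195 to 188. None of these matches overlapped another, and there was no p53 half-site in the window. Of 35116 such windows in the table, 10.72% held the TATA motif, 32.01% the CCAAT motif, 2.67% the CRE-like motif, 1.39% the E2F-type motif and 5.57% a p53 half-site. The matches describe letters only and were not measured as bound sites.

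TOB1, on chromosome 17 (50862223 to 50867978, minus strand, gene identifier 10140), had positive differences in 8 of 10 comparisons, but none was called in the main fit. Irradiated U2OS at 3 h stood at 10.54, 10.10 and 10.11, and untreated U2OS at 3 h at 7.86, 9.65 and 9.39. The groups did not overlap, and untreated replicate 1 was far below the others of its group. The difference was 1.28 (SE 0.37, 95% interval 0.50 to 2.07, n = 3 against 3), 2.43-fold, which ranked 9 of 14654 genes by size and had a limma adjusted p of 0.683. Without that untreated array it was 0.73. With quantile normalization of the U2OS arrays it was 1.15 and not called (limma adjusted p 0.673). Blocking on the replicate number called it (limma adjusted p 0.0275, 0.246% of genes called), as did the fit of all 75 arrays (limma adjusted p 0.0180, 0.519% of genes called).

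The second probe set of TOB1 did not show that low array. Its untreated U2OS arrays at 3 h were at 8.64, 8.71 and 9.04 and the irradiated ones at 9.80, 9.20 and 9.42. These did not overlap either, and the difference was 0.67 (SE 0.18, limma adjusted p 0.741). At 6 h the main probe set gave 9.18, 9.90 and 10.00 in irradiated U2OS and 8.36, 9.71 and 9.35 in untreated U2OS, which overlap, and the difference was 0.56 (95% interval -0.23 to 1.34). Untreated replicate 1 was again the lowest array, and without it the difference at 6 h was 0.17. Irradiated replicate 1 was also the lowest of its group, and the same-numbered differences at 6 h were 0.819, 0.191 and 0.655.

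In BJ at 3 h all irradiated arrays of TOB1 were above all untreated ones, 11.18, 11.40 and 11.46 against 10.57, 10.81 and 10.70. The difference was 0.65 (SE 0.23, 1.57-fold), with same-numbered differences of 0.61, 0.59 and 0.76. It ranked 48 of 14467 genes by size and was not called, with a limma adjusted p close to 1, while a fit of these 6 arrays alone called it (limma adjusted p 0.0383, 0.145% of genes called). The second probe set gave 0.60 in the same comparison, from 10.01, 9.96 and 9.69 in irradiated against 9.30, 9.42 and 9.16 in untreated arrays. By 6 h the BJ arrays overlapped, at 11.07, 11.03 and 10.27 against 9.73, 10.83 and 10.68, and the difference was 0.38 (95% interval -0.11 to 0.86). That value was 0.04 without untreated replicate 1.

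In TK6 the arrays of TOB1 overlapped, but each irradiated array was above the untreated array of the same number. At 3 h the irradiated arrays were at 10.54, 9.91 and 10.01 and the untreated ones at 10.12, 9.57 and 9.32. The difference was 0.48 at 3 h (limma adjusted p 0.378) and 0.42 at 6 h (limma adjusted p 0.399), neither called. Under a block for the replicate number both were called (limma adjusted p 0.00224 and 0.00547), in a fit that called 8.46% and 13.1% of genes, so 2 of 4 members were called at each time. The second probe set was called at 3 h, at 0.53 (limma adjusted p 0.0386), and not at 6 h, at 0.34 (limma adjusted p 0.215). The mean of both probe sets was also called at 3 h, at 0.51 (limma adjusted p 0.0296, 3.73% of genes called). Without replicate 1 in the TK6 groups the main probe set was called too, at 0.52 and 0.45 (limma adjusted p 0.0227 and 0.0414). How many of all genes that fit called is not given here, so these calls are no result about TOB1 by themselves. Leaving out any other array or replicate number of the TK6 groups gave no call.

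In the arrays labelled HepG2, TOB1 was higher at 6 h than at 0 h, and this was called for irradiated cells. Untreated arrays were at 7.67, 8.21 and 8.21 at 0 h, at 8.57, 8.39 and 8.40 at 3 h, and at 8.32, 8.99 and 9.18 at 6 h. Irradiated arrays were at 8.41, 9.14 and 8.77 at 3 h and at 8.95, 9.09 and 9.15 at 6 h. Irradiated arrays at 6 h exceeded the untreated 0 h arrays by 1.04 (SE 0.19, limma adjusted p 0.00583, 1.54% of genes called), and untreated arrays at 6 h exceeded the same 0 h arrays by 0.80, which was not called (limma adjusted p 0.0688). The second probe set was called for untreated 6 h over 0 h, at 0.78 (limma adjusted p 0.00987), among 0.335% of probe sets. Replicate 1 of untreated HepG2 at 0 h, at 7.67 the lowest of these arrays, also had the lowest upper quartile of its line (6.00, the others at or above 6.24). Without it the irradiated 6 h value was 0.85 and still called (limma adjusted p 0.0458), the untreated one 0.62, and the second probe set 0.65 (limma adjusted p 0.0400). The second probe set was not called without 0 h replicate 3, at 0.77 (limma adjusted p 0.0634). Untreated 6 h over 0 h was called for the main one without 0 h replicate 2, at 0.89 (limma adjusted p 0.0411). The latter comparison called 257 of the 14369 genes tested, against 92 in the main fit. Irradiated minus untreated arrays of the same time differed by 0.32 and 0.23 with 95% intervals of -0.08 to 0.73 and -0.17 to 0.64. Without replicate 1 in the HepG2 groups the difference at 3 h was 0.56 and called (limma adjusted p 0.00188), and the difference at 6 h was 0.04. That fit called 939 of the 14369 genes tested at 3 h, against 0 in the main fit. In the arrays labelled G361 the differences were -0.08 and -0.10, and the untreated arrays at 6 h were above the 0 h arrays by 0.63 (limma adjusted p close to 1).

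The change of TOB1 was not shown to differ between lines. The limma F test gave adjusted p of 0.652 at 3 h and close to 1 at 6 h. The change in U2OS at 3 h exceeded the mean of the other lines by 0.94 (SE 0.33, limma adjusted p 0.420), which was not called.

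**Figure D3:**
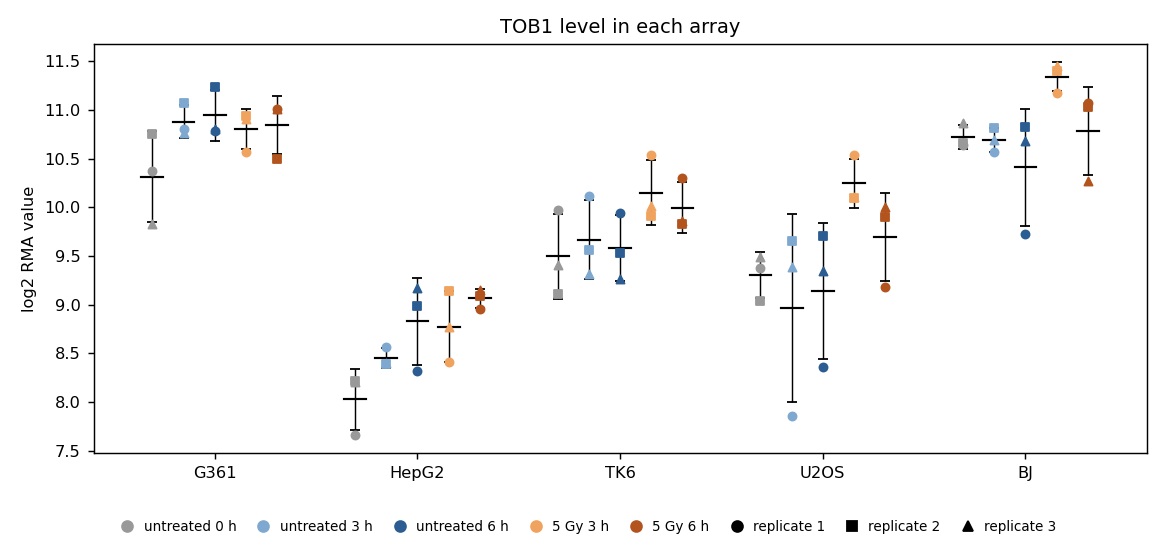
Log2 RMA value of the main TOB1 probe set in each of the 75 arrays, by line, with colours for treatment and time and symbols for the replicate number. Bars are group means and 1 SD (n = 3). Untreated U2OS replicate 1 at 3 h is at 7.86, below the other U2OS arrays, and the arrays labelled HepG2 climb from 7.67 to 9.18 across the labelled times.

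The RefSeq table has 2 starts for TOB1, and the window before the second, the GC-rich one, is shown beside that of BTG1 because TOB1 had the largest single difference, which was not called (chr17:50866355-50866604 in GRCh38.p14, minus strand, matches to the same motifs in capitals).
TOB1: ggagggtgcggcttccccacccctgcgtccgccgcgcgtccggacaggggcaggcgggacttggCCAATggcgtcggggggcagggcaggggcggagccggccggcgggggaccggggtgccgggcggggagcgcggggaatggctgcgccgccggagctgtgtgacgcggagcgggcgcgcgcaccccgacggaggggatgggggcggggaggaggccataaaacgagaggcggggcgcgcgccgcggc
It held 1 CCAAT at 186 to 182 bases upstream and none of the other motifs, and 80.4% of its bases were G or C against 56.4% in the BTG1 window. The window before the first TOB1 start (38.4% G or C) and those of BTG3 (78.4%) and TOB2 (68.4%) held no match to any of the 5 motifs.

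TOB2, on chromosome 22 (41433494 to 41446801, minus strand, gene identifier 10766), was the only member with a called fall, and that fall was over time in TK6. Untreated TK6 was at 7.76, 7.89 and 7.47 at 0 h, at 7.36, 7.69 and 7.42 at 3 h, and at 7.11, 6.96 and 6.85 at 6 h. All untreated arrays at 6 h were below all those at 0 h, and the difference of -0.74 (SE 0.18, limma adjusted p 0.0233) was called, as for 5.16% of genes. Irradiated TK6 was at 6.88, 7.06 and 7.25 at 3 h and at 7.24, 7.01 and 6.43 at 6 h. Against the same 0 h arrays the differences were -0.64 (limma adjusted p 0.0270) and -0.81 (limma adjusted p 0.00508), both called. Of all genes 10.5% and 14.2% were called in these comparisons (6.14% and 6.81% lower). The call for irradiated cells at 6 h held without any 1 of the 3 arrays at 0 h (-0.93 to -0.72). Without 0 h replicate 1 the untreated 6 h and irradiated 3 h values were -0.71 and -0.62 (limma adjusted p 0.0591 and 0.0646), and without replicate 2 they were -0.64 and -0.55 (limma adjusted p 0.128 and 0.134), not called.

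Against untreated TK6 of the same time, irradiated TOB2 was lower at 3 h by -0.43 without overlap, which was not called (95% interval -0.81 to -0.05, limma adjusted p 0.280). At 6 h, when the untreated level was itself low, the difference was -0.08 (95% interval -0.46 to 0.30). The change at 6 h minus that at 3 h was 0.35 (95% interval -0.19 to 0.89). The second probe set of TOB2 gave -0.31 at 3 h and 0.12 at 6 h, and -0.33 for untreated 6 h over 0 h (limma adjusted p 0.637), none called. The third was below the level limit in every line.

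In the arrays labelled HepG2 TOB2 was lowest at 0 h, at 6.12, 6.39 and 6.04, and between 6.54 and 6.91 in the other 12 arrays, irradiated or not. Of the 4 later groups, irradiated arrays at 6 h were called over 0 h (0.54, limma adjusted p 0.0460). TOB1 and TOB2 were thus the 2 of 4 members called there, against 1.54% of all genes (1.31% higher). The largest TOB2 difference over 0 h was in untreated arrays at 3 h, at 0.67. It was not called (limma adjusted p 0.127), in a comparison that called 0% of genes. The TOB2 call was lost without 0 h replicate 1, at 0.51 (limma adjusted p 0.0882), or replicate 3, at 0.47 (limma adjusted p 0.147). Without replicate 2 irradiated arrays at 3 h and untreated ones at 6 h were called too, at 0.67 and 0.62 (limma adjusted p 0.0349 and 0.0350). Those comparisons called 76 and 257 of the 14369 genes tested, against 65 and 92 in the main fit. In irradiated HepG2 arrays at 3 h over 0 h no member was called, against 0.452% of genes (0.397% higher). Against 0 h no member was called in BJ, where untreated arrays at 3 h and 6 h and irradiated arrays at 6 h gave 0.0138%, 0.00691% and 2.08% of genes. In U2OS irradiated arrays at 6 h were at 7.27, 7.10 and 6.79, all below the untreated 7.33, 7.38 and 7.65, and the difference of -0.40 was not called (limma adjusted p close to 1). In the remaining comparisons TOB2 differed by -0.25 to 0.25, with overlap. The F test between lines gave limma adjusted p close to 1 at both times.

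BTG3, on chromosome 21 (17593653 to 17612901, minus strand, gene identifier 10950), changed least on its main probe set. Its 10 differences lay between -0.16 and 0.17, and their 95% intervals reached from -0.45 to 0.38, all below the rise of BTG1 in TK6. In BJ at 3 h irradiated arrays were at 9.92, 10.02 and 9.87 and untreated ones at 9.77, 9.84 and 9.76, without overlap, and the difference was 0.15 (SE 0.10, limma adjusted p close to 1). In TK6 irradiated arrays at 3 h were at 10.66, 10.82 and 10.93 and untreated ones at 10.41, 10.74 and 10.78, which overlap, with a difference of 0.16. The main probe set of BTG3 is of a type whose probes may also match other sequences. The next one gave 0.32 in TK6 at 3 h (limma adjusted p 0.0958) and between -0.13 and 0.24 elsewhere, none called. A further probe set was above the limit in U2OS alone, at a mean of 4.84.

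**Figure D4:**
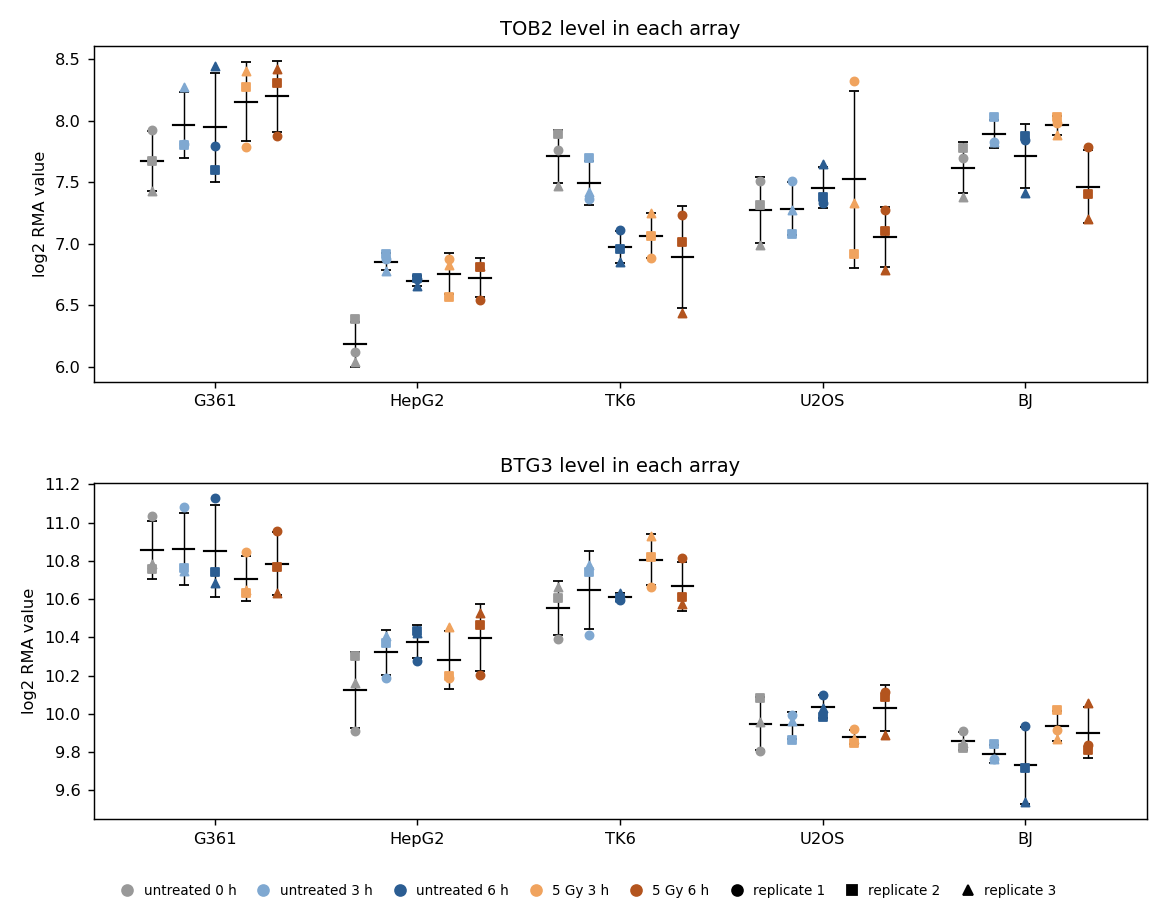
Log2 RMA values of the main TOB2 (top) and BTG3 (bottom) probe sets in each of the 75 arrays, by line, with colours for treatment and time and symbols for the replicate number; bars are group means and 1 SD (n = 3). Untreated TK6 arrays of TOB2 go from 7.47 to 7.89 at 0 h to 6.85 to 7.11 at 6 h, and BTG3 stays within 9.54 to 11.13 over all arrays.

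The probe sets of a gene can be set against each other across lines and times. For BTG1 both probe sets were highest in TK6 and the second gave 0.42 and 0.52 in U2OS and -0.26 to 0.22 in the other lines. For TOB1 the second probe set exceeded 0.5 in U2OS, BJ and TK6 at 3 h, as did the main one in U2OS and BJ, and was below the main one in U2OS (0.67 against 1.28). The main and the second probe set had opposite signs in 12 of 40 irradiated minus untreated values, none of them called: 6 of 10 for TOB2, 4 of 10 for BTG1, 2 of 10 for TOB1 and 0 of 10 for BTG3. The widest were TOB2 in U2OS at 6 h (-0.40 and 0.03) and TOB1 in the arrays labelled HepG2 at 3 h (0.32 and -0.11) and G361 at 6 h (-0.10 and 0.31).

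**Figure D5:**
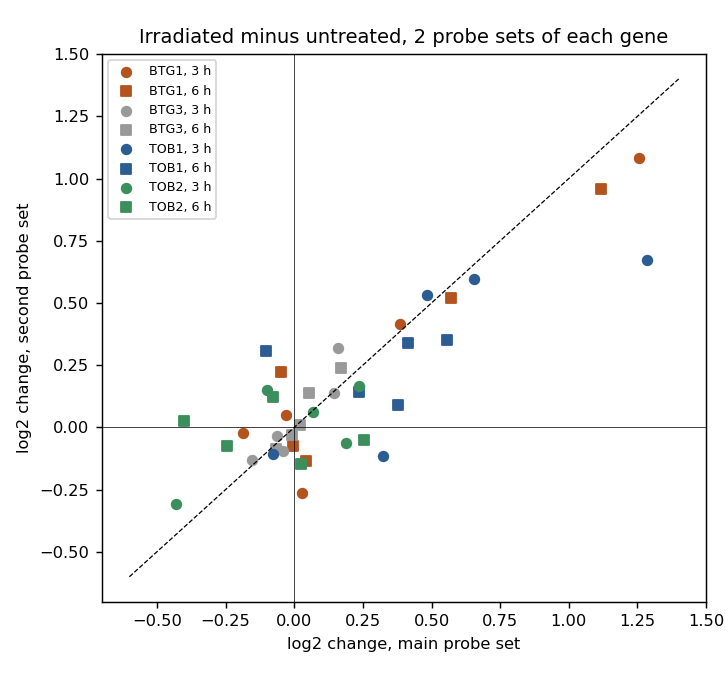
Log2 change, irradiated minus untreated, of the second probe set (vertical axis) against the main probe set (horizontal axis) of each gene, 1 point per line and time (circles 3 h, squares 6 h); the dashed line marks equal values. The 2 BTG1 points at the upper right are TK6, at 1.26 and 1.08 (3 h) and at 1.12 and 0.96 (6 h), and TOB1 in U2OS at 3 h lies far below the line.

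Before treatment the lines differed in BTG1. The 0 h arrays averaged 10.54 ± 0.09 (SD, n = 3) in TK6, 10.36 ± 0.25 in G361, 9.84 ± 0.02 in BJ, 9.58 ± 0.11 in HepG2 and 7.69 ± 0.04 in U2OS. U2OS was below every other line, by 1.89 against HepG2 (limma adjusted p 1.17e-14) and by 2.85 against TK6. TK6 and G361 did not differ beyond their spread (0.18, limma adjusted p 0.430), nor did BJ and HepG2 (0.26, limma adjusted p 0.224), and 8 of 10 pairs of lines were called. Between 45.3% and 59.2% of all genes were called in a pair of lines, so a difference between lines is common. With all 9 untreated arrays G361 came above TK6.

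BTG3 at 0 h was highest in G361 (10.86 ± 0.15, n = 3), followed by TK6 (10.55 ± 0.14), HepG2 (10.12 ± 0.20), U2OS (9.95 ± 0.14) and BJ (9.86 ± 0.05). HepG2 and U2OS, and U2OS and BJ, did not differ beyond their spread (limma adjusted p 0.220 and 0.532), and the other 8 pairs were called, the closest being HepG2 over BJ (0.27, limma adjusted p 0.0463). In the mean of all BTG3 probe sets U2OS came second.

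TOB1 at 0 h was highest in BJ (10.72 ± 0.12, n = 3) and G361 (10.32 ± 0.46), which did not differ beyond their spread (limma adjusted p 0.258). TK6 (9.50 ± 0.44) and U2OS (9.30 ± 0.24) came next and did not differ either (limma adjusted p 0.613). HepG2 (8.03 ± 0.31) was below all other lines, by 1.28 against U2OS (limma adjusted p 0.000196). Again 8 of 10 pairs were called. With all 9 untreated arrays G361 came above BJ.

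TOB2 at 0 h separated HepG2 alone, at 6.18 ± 0.18 (n = 3). TK6 (7.71 ± 0.22), G361 (7.67 ± 0.25), BJ (7.62 ± 0.21) and U2OS (7.27 ± 0.27) were each above it by at least 1.09 (limma adjusted p 1.37e-05 for U2OS), and the 6 pairs among these 4 lines were not called, so 4 of 10 pairs were. The order at the top changed with quantile normalization, with the mean of all probe sets and with all 9 untreated arrays, each of which put G361 first. The arrays labelled HepG2 thus held the least TOB1 and TOB2 and U2OS the least BTG1 at 0 h. The mean of BTG3 was lowest in BJ, which did not differ from U2OS beyond the spread (0.09, limma adjusted p 0.532).

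The genes whose pattern was most like each member were found by Pearson's r over the 75 arrays after each line's mean was removed, among 12970 genes, as a description since arrays share lines and treatments. For BTG1 they were TM7SF3, XPC and FBXO22 (r = 0.80, 0.79 and 0.79). Within TK6 their r was 0.92, 0.94 and 0.94, and within U2OS it was 0.81, 0.75 and 0.74. Within BJ it was 0.24, 0.48 and 0.45, within the arrays labelled G361 0.10, 0.69 and 0.24, and within those labelled HepG2 0.18, 0.05 and 0.57. For TOB1 they were CDC42, VAMP3 and RAP2B (0.78, 0.75 and 0.75). For TOB2 they were HIPK1, CEP97 and ARHGAP5 (0.82, 0.79 and 0.78), and for BTG3 TSPAN3, EED and ATXN10 (0.65, 0.62 and 0.59). Between the members themselves r lay from -0.33 (BTG1 with TOB2) to 0.20 (BTG1 with TOB1).

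The machinery that BTG and TOB proteins attach to was looked at through a list of 28 genes for poly(A) tail shortening and binding (the CCR4-NOT and PAN complexes, poly(A)-binding and decapping proteins), of which 27 had a value and passed the filter in all 5 lines. No list member was called in any of the 10 comparisons of irradiated with untreated arrays. Their median differences were -0.04 and 0.04 in TK6, against 0.01 and 0.01 over all genes, and 0.12 and -0.07 in U2OS, against 0.10 and 0.00. Against the 0 h arrays in TK6, 2 of 27 fell in untreated cells at 6 h and 2 fell in irradiated cells at 3 h. In irradiated cells at 6 h 5 fell and 1 rose. Of all genes 5.16%, 10.5% and 14.2% were called in these comparisons. The shares called lower were 3.35%, 6.14% and 6.81%, and 7.44% were called higher in irradiated cells at 6 h. DCP1A, a decapping activator, fell by 0.36 and 0.43 after irradiation and by 0.42 in untreated cells at 6 h. CPEB2, which binds regulatory sites of messenger RNAs, fell by 0.64 in irradiated and by 0.86 in untreated cells at 6 h. PAN3, a subunit of the PAN deadenylase, fell by 0.51 and 0.40 in irradiated cells at 3 h and 6 h (limma adjusted p 0.00703 and 0.0274), and LSM14A, a component of P-bodies, fell by 0.39 in irradiated cells at 6 h (limma adjusted p 0.00984). Of the direct binding partners of the family, CNOT7 was lower at -0.37 and CNOT8 higher at 0.45 in irradiated TK6 at 6 h over 0 h (limma adjusted p 0.0130 and 0.0101), and neither was called against untreated TK6 of the same time.

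A second list held 13 genes described as partners, targets or relatives of the family, all with a value. In TK6 11 were tested, and SMAD5, a transducer of bone morphogenetic protein signals, was higher by 0.91 at 3 h and 0.69 at 6 h in irradiated over untreated arrays (limma adjusted p 0.000274 and 0.00357). SMAD1, of the same class, was lower at 3 h, by -0.46 (limma adjusted p 0.0331). The untreated TK6 arrays at 3 h were themselves higher in SMAD1 than those at 0 h, by 0.47 (limma adjusted p 0.0479, 1.81% of genes called). In irradiated over untreated TK6, 2 of 11 genes of the list were thus called at 3 h and 1 of 11 at 6 h, against 3.99% and 6.23% of all genes, and none was called in that comparison in the other lines. The median of the list was 0.06 and -0.14 in TK6, against 0.01 and 0.01 over all genes.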

How the data were processed

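Messenger RNA was measured on 75 arrays with 54675 probe sets. Per the submitters' processing notes, the authors deposited log2 values made by RMA; the sources used here give neither its version nor whether lines were normalized together. RMA shares probe effects over arrays, so levels compare arrays and not genes. Of the probe sets, 41097 had 1 symbol, 1801 several (left out) and 11777 none here; 41043 were matched to RefSeq (GRCh38.p14) by gene identifier and 0 symbols changed. Promoter windows are RefSeq sequences of the same build. No sample column was left unused and 0 pairs of arrays were identical.

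Each line's 15 arrays were fitted with 5 group means (10 residual degrees of freedom) in limma 3.58.1 (R 4.3.3; eBayes with trend), tested on simulated data, over genes whose line mean exceeded the 40th percentile over probe sets (limits 3.47 to 3.52), with Benjamini-Hochberg adjusted p under 0.05 as a call. One fit of 75 arrays tested differences between lines, for 16027 genes. Groups of 3 arrays cannot give an exact permutation p under 0.1, and their number limits the precision. Named genes are the members, the 3 most similar genes of each, at most 4 called genes chosen per list and comparison, and CDKN1A. A gene chosen in any comparison may also be given in others. Cell type markers and BTG1-DT are named besides.

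Replicate numbers occur in every group. Deviations of same-numbered arrays correlated above 0.1 in each pair for 8 of the 10 comparisons. In the others the lowest correlation was 0.0961 for 3 h in HepG2 and -0.0306 for 6 h in BJ. The main fit did not use the numbers as pairing, and they entered as a block only in an alternative fit. Alternatives were no level filter, quantile normalization, the mean of all probe sets, 1 fit of 75 arrays, a fit of the 6 compared arrays, the replicate number as a block, 0 h arrays as reference, and leaving out arrays or replicate numbers; leaving out each 0 h array in TK6 and HepG2 was added after seeing the data. The members and lists were chosen with earlier results of these data known.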

Additional observations from a re-analysis of the deposited data

Results flagged for a closer look

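The change of BTG1 after irradiation differed between the 5 lines by a test of the difference itself. The moderated F test in limma gave an adjusted p of 0.000234 at 3 h and of 0.00256 at 6 h. In TK6 BTG1 was higher by 1.26 and 1.12, in U2OS by 0.39 and 0.57, and in the other lines it differed by -0.19 to 0.04. The arrays labelled G361 and HepG2 are among the lines compared, and without them the adjusted p was 0.0133 at 3 h and 0.0582 at 6 h. Without replicate 2 or replicate 3 the difference between lines was not called at either time.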

How the results depend on the processing

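The 2 called rises of BTG1 in TK6 stayed called and positive in all 16 alternatives at each time, from 0.90 to 1.42 at 3 h (limma adjusted p 1.41e-07 to 0.0194) and from 0.81 to 1.29 at 6 h (6.44e-07 to 0.0407). No called value changed sign. Of 594 comparisons of a value that was not called, 67 changed sign, and 14 values became called. The number of members called was unchanged in 147 of 160 alternatives. With the replicate number as a block it was 2 at both times in TK6 (TOB1 added; genes called in all went from 568 to 1203 and from 887 to 1868) and 1 in U2OS at 3 h (TOB1); the block changed no other call of a member. It was 2 in TK6 at 3 h with the mean of all probe sets. With 0 h arrays as reference it was 2 in TK6 at both times (TOB2 added, 10.5% and 14.2% of genes called). It was also 2 in HepG2 at 6 h with that reference (TOB1 and TOB2, 1.54% of genes called). It was 1 in U2OS at 3 h in the fit of all 75 arrays and 1 in BJ at 3 h in the fit of the 6 compared arrays. Leaving out replicates gave 1 to 2 in TK6 at both times and 0 to 1 in HepG2 at 3 h and U2OS at 6 h, in each case called without replicate 1. The HepG2 fit without replicate 1 called far more genes in all than the main fit. Shares of all genes were not set beside the TK6 and U2OS counts, so these counts are no result about the members. For BTG1 between lines, leaving out a replicate number gave limma adjusted p of 5.71e-08 to 0.216 at 3 h and 1.46e-06 to 0.707 at 6 h. Without the G361 and HepG2 arrays the 6 h value was 0.0582. Of 56 such values over the 4 genes, 51 kept their side of the threshold. Leaving out each 0 h array, chosen after seeing the data, also called TOB1 in irradiated over untreated 0 h TK6 without replicate 1, at 0.89 (3 h) and 0.74 (6 h; limma adjusted p 0.0183 and 0.0419). Those comparisons called 1593 and 2120 of the 14227 genes tested, so a call there is common. The causes were not tested. The order of lines at 0 h kept its lowest line for each gene in all alternatives, while with all 9 untreated arrays BJ minus G361 for TOB1 was -0.11 and TK6 minus G361 for TOB2 was -0.47.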

Other observations

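The divergent transcript beside BTG1, BTG1-DT, was chosen after values were seen. Its group means lay between 5.08 and 5.97 in the 5 lines, and it was not called in any comparison. In TK6, where BTG1 rose, irradiated minus untreated BTG1-DT was 0.13 at 3 h and 0.16 at 6 h (limma adjusted p 0.805 and 0.697).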
